A study of Mus musculus with 23 samples.

Results

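The genes described here are 33 genes of the lysosome, namely enzymes, activator and transport proteins, membrane proteins, subunits of the V-ATPase proton pump and 1 autophagy receptor, read in the RNA-seq table of a study of β-TC6 cells (also written BetaTC6). They were chosen by name, with earlier results of these data known. They are the rows whose Ensembl identifier maps to 33 listed symbols in the GENCODE vM21 annotation. Each of the 33 was found once among the 20599 genes in the table. β-TC6 cells come from an insulinoma of a transgenic mouse and secrete insulin. The line was used between passages 5 and 15, untreated. Polyadenylated RNA was sequenced from 3 libraries of each of 3 genotypes. Bmal1-/- cells carry a CRISPR-Cas9 deletion of exon 8 of *Bmal1*, Clock-/- cells carry one of exons 6 to 7 of *Clock*, and WT cells carry neither. For Bmal1-/- and WT cells there are also 2 ChIP-seq libraries each of THRAP3, an RNA-binding protein that also associates with CLOCK and BMAL1. Each knockout line is 1 picked clone and the 3 libraries of a genotype are triplicate wells, so p-values measure the spread between wells, and the effect of a deletion and the difference between clones cannot be told apart.

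The lysosome is the acidic organelle in which cells digest protein, glycan, lipid and nucleic acid delivered by endocytosis and autophagy. The V-ATPase pumps protons into it at the cost of ATP, which gives its hydrolases the low pH they need. Many of these genes carry a palindromic E-box of the CLEAR type close to their start, bound by the transcription factor TFEB and its relatives, and the core of that E-box is the same hexamer that CLOCK-BMAL1 dimers bind. In β cells, insulin granules that are not secreted are degraded in lysosomes.

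The hexamer CACGTG was therefore searched on both strands in the RefSeq promoter windows of GRCm38.p6, which run from 250 bases before the transcript start to 50 bases after it. A window was found for 28 of the 33 genes. Of these, 14 held CACGTG (50%), against 8.09% of all 27025 genes with a window, and against 12.9% of the 6326 genes whose mean level in these cells was at least that of the lowest of the 33. The longer palindrome TCACGTGA, which contains the hexamer, stood in 7 of the 28 (25%), against 1.12% of all genes and 2.80% of those at a comparable level. A match is a description of the letters and does not show that a factor binds there. The TCACGTGA sites are printed because this longer palindrome was the rarer of the 2 motifs among all promoters. Each line gives 9 bases either side of the palindrome, in the direction of the gene, with the palindrome in capitals.
Atp6v0d1, chr8:105566052-105566077, minus strand: ctactgcggTCACGTGAgacgcggtg
Atp6v1a, chr16:44139375-44139400, minus strand: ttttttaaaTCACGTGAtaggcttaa
Cln3, chr7:126583342-126583367, minus strand: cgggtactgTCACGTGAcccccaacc
Ctsa, chr2:164833751-164833776, plus strand: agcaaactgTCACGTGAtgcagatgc
Ctsa, chr2:164833768-164833793, plus strand: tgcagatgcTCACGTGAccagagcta
Ctsd, chr7:142387910-142387935, minus strand: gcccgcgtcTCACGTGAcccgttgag
Gla, chrX:134601217-134601242, minus strand: agcgattgaTCACGTGAgcatctacg
Gla, chrX:134601184-134601209, minus strand: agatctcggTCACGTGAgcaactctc
Mcoln1, chr8:3500464-3500489, plus strand: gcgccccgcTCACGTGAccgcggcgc

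The sites lay 228 bases upstream of the start at the farthest (*Gla*) and 5 bases past it at the nearest to the coding part (*Ctsa*), counted to the first base of the palindrome. *Ctsa* and *Gla* held 2 palindromes each, and the other 5 genes held 1. *Lamp1*, for a major glycoprotein of the lysosomal membrane, held no TCACGTGA but 4 copies of CACGTG between 61 and 15 bases upstream of its start, more than any other of the 28. *Mcoln1*, for a cation channel that releases calcium from lysosomes, held 1 TCACGTGA and 1 further CACGTG. Their 250 bases upstream of the start are printed because both promoters also held THRAP3 peaks in cells of both genotypes (described further on), with each CACGTG in capitals.
Lamp1, chr8:13158911-13159160, plus strand: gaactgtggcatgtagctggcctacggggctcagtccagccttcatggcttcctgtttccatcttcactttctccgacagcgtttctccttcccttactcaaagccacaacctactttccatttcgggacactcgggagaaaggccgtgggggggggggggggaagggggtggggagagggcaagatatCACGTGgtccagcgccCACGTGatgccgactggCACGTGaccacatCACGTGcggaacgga
Mcoln1, chr8:3500269-3500518, plus strand: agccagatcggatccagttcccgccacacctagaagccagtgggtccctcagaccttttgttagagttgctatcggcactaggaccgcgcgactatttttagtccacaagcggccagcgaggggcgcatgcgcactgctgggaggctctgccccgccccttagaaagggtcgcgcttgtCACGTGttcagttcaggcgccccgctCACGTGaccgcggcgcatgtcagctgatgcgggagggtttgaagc

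All values of expression are the authors' TPM, a gene's share of the transcripts after scaling for gene length, with the same sum in each library. Levels can therefore be compared between genes, but the table does not hold the number of reads behind a value. The 33 genes together took 13896.5, 12419.5 and 13102 TPM in Bmal1-/- libraries and 11864, 11168 and 11624 TPM in Clock-/- libraries. In WT libraries they took 10867, 10651 and 10316 TPM, and the 3 genotypes did not overlap. This sum follows the most abundant genes and does not show that the 33 moved as a set. *Psap* alone averaged 2284, 2066 and 1474 TPM in Bmal1-/-, Clock-/- and WT libraries, and *Asah1* 559, 815 and 321 TPM. Counted gene by gene against WT, Clock-/- cells had 7 of the 33 higher and 7 lower (limma, adjusted p under 0.01). Of all genes in the table, 2189 to 2691 were listed at 0 in Bmal1-/- libraries, 791 to 1010 in Clock-/- libraries and 687 to 905 in WT libraries, and none of the 33 was at 0 in any library. The 8 β-cell markers, nearly all of their sum *Ins2* and *Iapp*, summed to 38984 to 41749 TPM in Bmal1-/-, 31274 to 37414 TPM in Clock-/- and 53968 to 56417 TPM in WT libraries. They did not move together, with a mean for *Ins1* of 2361 TPM in Bmal1-/-, 61.0 TPM in Clock-/- and 2307 TPM in WT, for *Slc2a2* of 42.8, 6.80 and 109 TPM in those genotypes, and for *Nkx6-1* of 647, 505 and 265 TPM. A list of 4 markers of other islet endocrine cells summed to 67.6 to 76.5 TPM in Bmal1-/-, 1499 to 1674 TPM in Clock-/- and 557 to 576 TPM in WT libraries, nearly all of it *Gcg* and *Sst*. The part of these shifts in the results was not tested. *Arntl*, the annotation's name for *Bmal1*, was at 3.52, 3.32 and 3.41 TPM in Bmal1-/- against 3.63, 3.52 and 4.22 TPM in WT libraries (adjusted p = 0.539). In Clock-/- libraries *Arntl* was higher than in WT, at 13.2, 10.6 and 16.2 TPM (log2 fold change 1.57, adjusted p = 3.09e-05). *Clock* was at 35.97, 28.03 and 46.6 TPM in Clock-/- against 49.7, 46.7 and 40.9 TPM in WT libraries (adjusted p = 0.137). A gene's level here counts the whole transcript, of which the deletions remove a small part, and does not check the labels.

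Levels among the 33 genes differed widely. *Psap*, for prosaposin, the precursor of the saposins that present sphingolipids to their hydrolases, had the highest mean over the 9 libraries at 1941 TPM and ranked 35 of 20599 genes. *Cd63*, for a tetraspanin of late endosomes and lysosomes, followed at 1632 TPM and *Lamp1* at 1315 TPM. A further 20 genes lay between 100 and 1000 TPM and 10 lay under 100 TPM, the lowest being *Cln3* at 14.9 TPM, *Sgsh* at 14.0 TPM and *Npc1* at 13.8 TPM, which ranked 8098. The SD within a genotype was at most 11.9% of the mean in Bmal1-/-, 25.8% in Clock-/- and 12.3% in WT libraries.

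**Figure D1:**
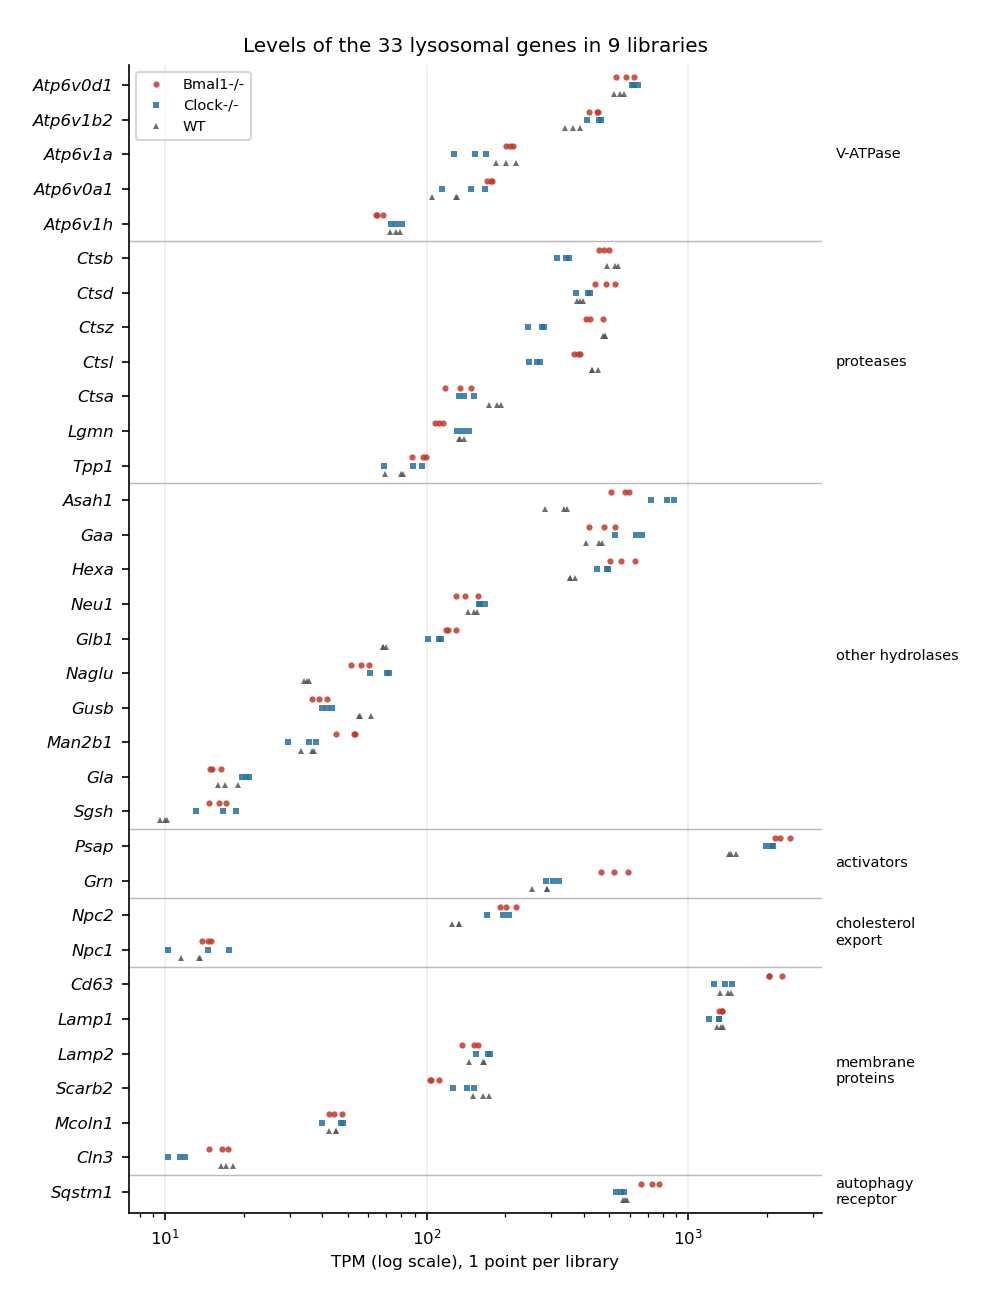
TPM of each of the 33 genes on a log scale, 1 point per library, with Bmal1-/- above Clock-/- above WT in each row and the genes grouped by role. *Psap* lies at the right in all 9 libraries, and *Asah1*, *Glb1* and *Naglu* show both knockouts to the right of WT while *Gusb* and *Ctsa* show both to the left.

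Bmal1-/- cells had higher mRNA of 14 of the 33 genes than WT cells and lower mRNA of 4 at an adjusted p under 0.01 over the 15031 genes tested. Progranulin (*Grn*), β-galactosidase (*Glb1*) and acid ceramidase (*Asah1*) rose most, by 0.91 ± 0.093, 0.83 ± 0.065 and 0.80 ± 0.10 on the log2(TPM + 1) scale (± the standard error of the fit, as for every log2 fold change here, n = 3 libraries a genotype), and the receptor *Scarb2* and β-glucuronidase (*Gusb*) fell most, with changes of -0.61 ± 0.081 and -0.54 ± 0.077. Over all genes tested 18.4% were higher and 21.0% lower, and among the 8097 genes at or above the mean level of the lowest of the 33 these shares were 24.5% and 20.5%. Of the 33, 42.4% were higher, above this background, and 12.1% lower, below it. Since the 33 were chosen with earlier results of these data known, this difference from the background is a description and not a test. The median log2 fold change was 0.09 for the 33 genes and -0.04 for all genes. No member passed the study's second threshold, an absolute log2 fold change above 1, which 11.8% of all genes passed together with the adjusted p. All Bmal1-/- libraries were above all WT libraries for 16 genes and below for 7, against 32.0% and 35.1% of all genes. In bulk RNA, fewer cells that express a gene and less RNA per cell cannot be told apart. Without Bmal1-/- replicate 1, without Bmal1-/- replicate 3 or without WT replicate 2 the number that rose was 9 each time, with no share of all genes counted for these fits.

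Clock-/- cells had higher mRNA of 7 genes than WT cells and lower mRNA of 7. *Asah1* rose most, by 1.34 ± 0.10 on the log2 scale, followed by *Naglu* at 0.94 ± 0.084 and *Glb1* at 0.65 ± 0.065. The falls were led by 3 cathepsins, *Ctsz* at -0.84 ± 0.074, *Ctsl* at -0.74 ± 0.058 and *Ctsb* at -0.62 ± 0.067. Over all genes 9.50% were higher and 14.4% lower, and 10.4% and 15.0% among genes at or above the level of the lowest member, against 21.2% in each direction for the 33. The median was 0.07 for the 33 genes and -0.02 for all genes. *Asah1* was the 1 gene past an absolute log2 fold change of 1, which 7.40% of all genes passed. Every Clock-/- library was above every WT library for 12 genes and below for 7, against 20.7% and 25.8% of all genes. With median-of-ratios scaling 9 rose and 6 fell, and with the median of each gene's chromosome subtracted 8 rose and 4 fell, again without a share of all genes beside them.

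Both comparisons use the same 3 WT libraries, so their calls are set side by side and not counted as separate support. *Asah1*, *Glb1*, *Hexa*, *Naglu*, *Npc2*, *Psap* and *Sgsh* passed the test upwards in both knockouts, and *Ctsa* and *Gusb* downwards in both. *Atp6v0a1*, *Atp6v1b2*, *Cd63*, *Ctsd*, *Grn*, *Man2b1* and *Sqstm1* passed upwards in Bmal1-/- alone, *Lgmn* and *Scarb2* downwards in Bmal1-/- alone, and *Atp6v1a*, *Cln3*, *Ctsb*, *Ctsl* and *Ctsz* downwards in Clock-/- alone. A further 10 genes passed in neither. A pass in a single line does not show that the lines differ. In limma's direct comparison of the knockouts *Atp6v0a1* (adjusted p = 0.0722), *Atp6v1b2* (0.908) and *Ctsd* (0.0141) were not past the test. The other genes that passed in a single line were past it.

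**Figure D2:**
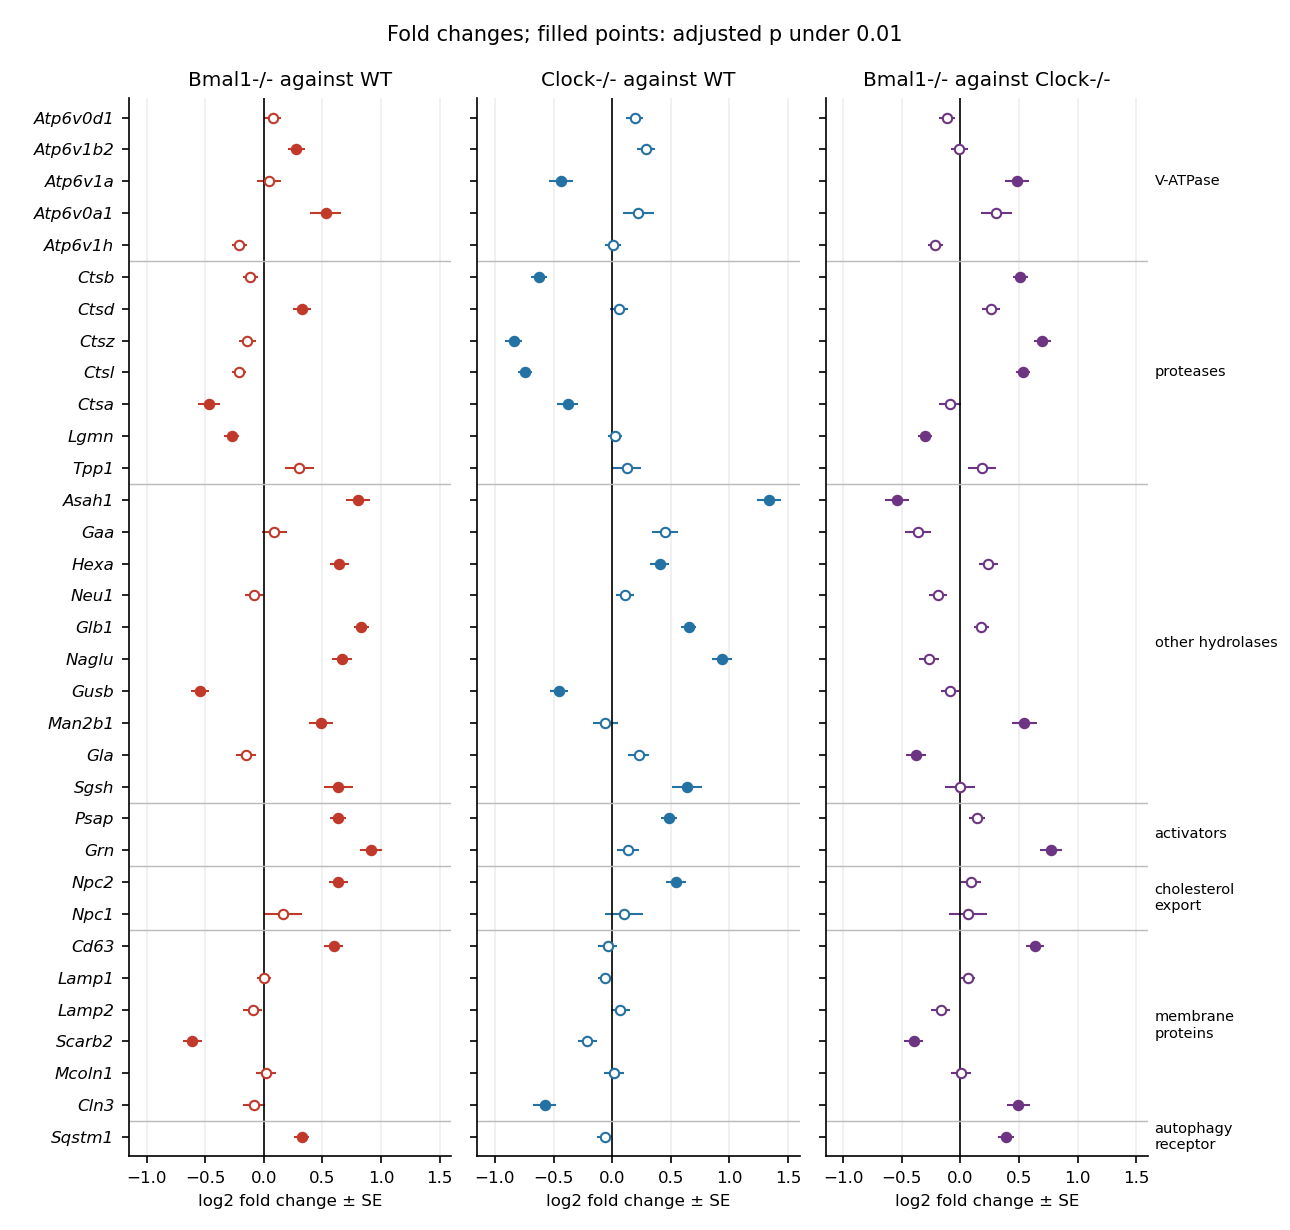
Log2 fold change with its standard error for each of the 33 genes in Bmal1-/- against WT, Clock-/- against WT and Bmal1-/- against Clock-/-, with filled points at an adjusted p under 0.01. The other hydrolases and activators lie mostly right of 0 in both knockouts, and the proteases *Ctsb*, *Ctsz* and *Ctsl* lie left of 0 most clearly in Clock-/- cells.

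Of the 5 V-ATPase subunits, 2 rose and none fell in Bmal1-/- cells, and none rose and 1 fell in Clock-/- cells. *Atp6v0a1*, for the membrane subunit along which protons pass, was at 178, 170.4 and 176 TPM in Bmal1-/- libraries, 148, 115 and 167 TPM in Clock-/- libraries and 131, 129.7 and 105 TPM in WT libraries. All 3 Bmal1-/- libraries were above all WT libraries, and the Clock-/- libraries overlapped WT. The log2 fold change was 0.53 ± 0.13 with an adjusted p of 0.00733 in Bmal1-/- and 0.22 at an adjusted p of 0.215 in Clock-/- cells. *Atp6v1b2*, for a nucleotide-binding subunit of the cytosolic sector, was at 450.2, 416 and 453 TPM in Bmal1-/-, 457, 411 and 463 TPM in Clock-/- and 387, 365 and 338 TPM in WT libraries. Both knockouts were above WT in every library by nearly the same amount. The log2 fold change was 0.28 at an adjusted p of 0.00962 in Bmal1-/- and 0.29 at an adjusted p of 0.0118 in Clock-/-, on either side of the threshold. With any 1 Bmal1-/- or WT library or Clock-/- replicate 1 left out, the Bmal1-/- call was lost for *Atp6v0a1* (adjusted p 0.0120 to 0.0292) and *Atp6v1b2* (0.0101 to 0.0412).

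*Atp6v1a*, for the catalytic subunit that hydrolyses ATP, was at 208, 201 and 215 TPM in Bmal1-/-, 153, 127 and 169 TPM in Clock-/- and 220.2, 201 and 184 TPM in WT libraries. It was lower in every Clock-/- library than in every WT library (log2 fold change -0.44 ± 0.10, adjusted p = 0.00853), while the Bmal1-/- libraries overlapped WT. *Atp6v1a* lies on chromosome 16, where the median over 427 tested genes was -0.46 in Clock-/- cells, and with that median subtracted its change was 0.016 at an adjusted p of 0.875. Its call in Clock-/- cells was also lost without WT replicate 1 or 2, any 1 Bmal1-/- library or Clock-/- replicate 1 or 2 (adjusted p 0.0132 to 0.0380). *Atp6v0d1*, for the subunit that couples the cytosolic to the membrane sector, was the most abundant of the 5 at 576 ± 46.2 TPM in Bmal1-/-, 624 ± 16.4 TPM in Clock-/- and 546 ± 22.6 TPM in WT libraries (SD, n = 3 each) and passed in neither knockout. *Atp6v1h*, for a regulatory subunit of the cytosolic sector, was at 64.6, 64.3 and 68.1 TPM in Bmal1-/- against 79.2, 76.4 and 72.6 TPM in WT libraries, lower in each but not past the test (-0.21 at an adjusted p of 0.0211). The median of the 932 tested genes of its chromosome 1 was -0.35 in Bmal1-/- cells.

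Of the 7 lysosomal proteases, 1 rose and 2 fell in Bmal1-/- cells, and none rose and 4 fell in Clock-/- cells. *Ctsz*, for a carboxypeptidase of the cathepsin family (chromosome 2, 174427493 to 174439039, in mm10 coordinates like all positions below), was at 473, 408 and 423 TPM in Bmal1-/-, 275, 281 and 245 TPM in Clock-/- and 473, 480.0 and 482 TPM in WT libraries. Every Clock-/- library was below all others, and every Bmal1-/- library lay under every WT library, the highest of them by less than 1 TPM. The log2 fold change was -0.14 at an adjusted p of 0.134 in Bmal1-/- and -0.84 ± 0.074 with an adjusted p of 2.13e-05 in Clock-/- cells. *Ctsl*, for a cysteine endopeptidase, was at 386, 366 and 379 TPM in Bmal1-/-, 263, 272 and 246 TPM in Clock-/- and 452, 428 and 429 TPM in WT libraries. The 3 genotypes did not overlap, with Clock-/- lowest and WT highest, and the fall passed in Clock-/- cells (log2 fold change -0.74 ± 0.058, adjusted p = 9.68e-06) and narrowly missed in Bmal1-/- cells (-0.21 at an adjusted p of 0.0124).

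*Ctsb*, for a cysteine protease that acts as endopeptidase and exopeptidase, was at 499.7, 458 and 479 TPM in Bmal1-/-, 351, 314 and 342 TPM in Clock-/- and 539, 527 and 489 TPM in WT libraries. Clock-/- libraries were again below all others (log2 fold change -0.62 ± 0.067, adjusted p = 7.48e-05), and Bmal1-/- and WT overlapped. Of its exon bases 12.8% are shared with *Fdft1* on the opposite strand, at a mean of 101 TPM, and whether the counting used strand is not given in the sources used here. *Ctsa*, for the carboxypeptidase that also shields β-galactosidase and neuraminidase from breakdown, was at 148, 117 and 134 TPM in Bmal1-/-, 152, 133 and 139 TPM in Clock-/- and 187, 192 and 173 TPM in WT libraries. Both knockouts were below WT in every library. The log2 fold change was -0.47 ± 0.091 with an adjusted p of 0.00174 in Bmal1-/- and -0.38 ± 0.091 with an adjusted p of 0.00876 in Clock-/-. The Clock-/- call on *Ctsa* was lost without any 1 Clock-/- or WT library or Bmal1-/- replicate 3 (adjusted p 0.0121 to 0.0402).

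*Ctsd*, for the main aspartic protease of the lysosome, was the 1 protease that rose in Bmal1-/- cells, at 526, 442 and 487 TPM against 375, 396 and 387 TPM in WT libraries (log2 fold change 0.32 ± 0.077, adjusted p = 0.00532), with no overlap. In Clock-/- libraries it was at 416, 422 and 373 TPM and overlapped WT. *Lgmn*, for the asparaginyl endopeptidase that matures other cathepsins, was at 115, 108 and 111 TPM in Bmal1-/-, 146, 138 and 130.2 TPM in Clock-/- and 139, 133 and 134 TPM in WT libraries. It was lower in every Bmal1-/- library than in all others (log2 fold change -0.28 ± 0.061, adjusted p = 0.00377 against WT), and Clock-/- and WT overlapped. *Tpp1*, for a tripeptidyl peptidase that is deficient in a form of neuronal ceroid lipofuscinosis, had log2 fold changes of 0.30 at an adjusted p of 0.0565 in Bmal1-/- and 0.12 at an adjusted p of 0.46 in Clock-/- cells. Neither call in Bmal1-/- cells held without any 1 WT library or Bmal1-/- replicate 3, nor *Ctsd* without Bmal1-/- replicate 1 and *Lgmn* without replicate 2 (adjusted p 0.0150 to 0.0224 for *Ctsd* and 0.0125 to 0.0188 for *Lgmn*).

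The 10 glycosidases and other hydrolases held 6 of the 14 rises in Bmal1-/- cells and 5 of the 7 in Clock-/- cells, and 1 fell in each. *Asah1*, for acid ceramidase, which splits ceramide into sphingosine and a fatty acid (chromosome 8, 41340197 to 41374773), was at 509, 576 and 593 TPM in Bmal1-/-, 834, 724 and 886 TPM in Clock-/- and 343, 336 and 284 TPM in WT libraries. The 3 genotypes did not overlap, with Clock-/- highest. In the fit the change was 0.80 ± 0.10 with an adjusted p of 0.000118 in Bmal1-/- and 1.34 ± 0.10 with an adjusted p of 7.27e-06 in Clock-/- cells. *Glb1*, for β-galactosidase (chromosome 9, 114401076 to 114474898), was at 129, 119 and 121 TPM in Bmal1-/-, 113, 101 and 112 TPM in Clock-/- and 69.9, 68.1 and 68.2 TPM in WT libraries. Again no library of one genotype reached those of another, here with Bmal1-/- highest. The change was 0.83 ± 0.065 with an adjusted p of 5.82e-06 in Bmal1-/- and 0.65 ± 0.065 with an adjusted p of 4.87e-05 in Clock-/- cells.

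Of the 3 enzymes of heparan sulfate breakdown among the 33, *Naglu* and *Sgsh* rose in both knockouts and *Gusb* fell in both. *Naglu*, for α-N-acetylglucosaminidase, was at 60.2, 51.5 and 55.95 TPM in Bmal1-/-, 70.5, 60.9 and 71.6 TPM in Clock-/- and 34.03, 35.6 and 34.8 TPM in WT libraries. The fitted change was 0.67 ± 0.084 with an adjusted p of 0.000116 in Bmal1-/- and 0.94 ± 0.084 with an adjusted p of 2.34e-05 in Clock-/- cells. *Sgsh*, for the sulfamidase of the same pathway, was at 17.2, 14.7 and 16.1 TPM in Bmal1-/-, 16.7, 13.1 and 18.8 TPM in Clock-/- and 10.2, 9.59 and 10.0004 TPM in WT libraries. Its log2 fold change was 0.64 at an adjusted p of 0.00194 in Bmal1-/- and 0.64 at an adjusted p of 0.00304 in Clock-/- cells. WT libraries were lowest for both genes, with no overlap. *Hexa*, for the α subunit of β-hexosaminidase, which removes a sugar from the ganglioside stored in Tay-Sachs disease, was at 628, 504 and 556 TPM in Bmal1-/-, 488, 492 and 448 TPM in Clock-/- and 369, 354 and 355 TPM in WT libraries. All libraries of both knockouts were above WT. Its log2 change was 0.64 ± 0.081 with an adjusted p of 0.000119 in Bmal1-/- and 0.41 ± 0.081 with an adjusted p of 0.00338 in Clock-/- cells. Without any 1 WT library or Clock-/- replicate 1 the Clock-/- calls were lost for *Hexa* (adjusted p 0.0107 to 0.0171) and *Sgsh* (0.0107 to 0.0152), and *Sgsh* was at 0.0101 in Bmal1-/- cells without Bmal1-/- replicate 1.

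*Gusb*, for β-glucuronidase, was at 41.8, 36.6 and 38.96 TPM in Bmal1-/-, 43.6, 41.8 and 39.7 TPM in Clock-/- and 61.6, 55.9 and 55.1 TPM in WT libraries. Both knockouts were below WT in every library and overlapped each other. The log2 fold changes were -0.54 ± 0.077 with an adjusted p of 0.000244 in Bmal1-/- and -0.45 ± 0.077 with an adjusted p of 0.00131 in Clock-/- cells. *Man2b1*, for the lysosomal α-mannosidase, was at 52.7, 45.2 and 53.1 TPM in Bmal1-/-, 35.4, 29.5 and 37.9 TPM in Clock-/- and 37.2, 36.4 and 33.2 TPM in WT libraries. It was higher in Bmal1-/- than in all other libraries (log2 fold change 0.49 ± 0.11, adjusted p = 0.00329 against WT), and Clock-/- and WT overlapped. Without Bmal1-/- replicate 1 or 3, or WT replicate 2 or 3, its adjusted p was 0.0109 to 0.0170 (log2 fold change 0.44 to 0.50 for *Man2b1*).

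The remaining 3 hydrolases passed in neither knockout. *Gaa*, for the acid α-glucosidase that digests glycogen, was at 525, 417 and 479 TPM in Bmal1-/-, 634, 525 and 664 TPM in Clock-/- and 457, 468 and 406 TPM in WT libraries. Its Clock-/- libraries were all above WT with an adjusted p just over the threshold (log2 fold change 0.45 ± 0.11, adjusted p = 0.0101), while Bmal1-/- libraries overlapped both. *Gla*, for α-galactosidase A, had log2 fold changes of -0.15 at an adjusted p of 0.169 in Bmal1-/- and 0.22 at an adjusted p of 0.0714 in Clock-/- cells. *Neu1*, for the lysosomal sialidase, had -0.085 at an adjusted p of 0.371 in Bmal1-/- and 0.11 at an adjusted p of 0.3 in Clock-/- cells.

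**Figure D3:**
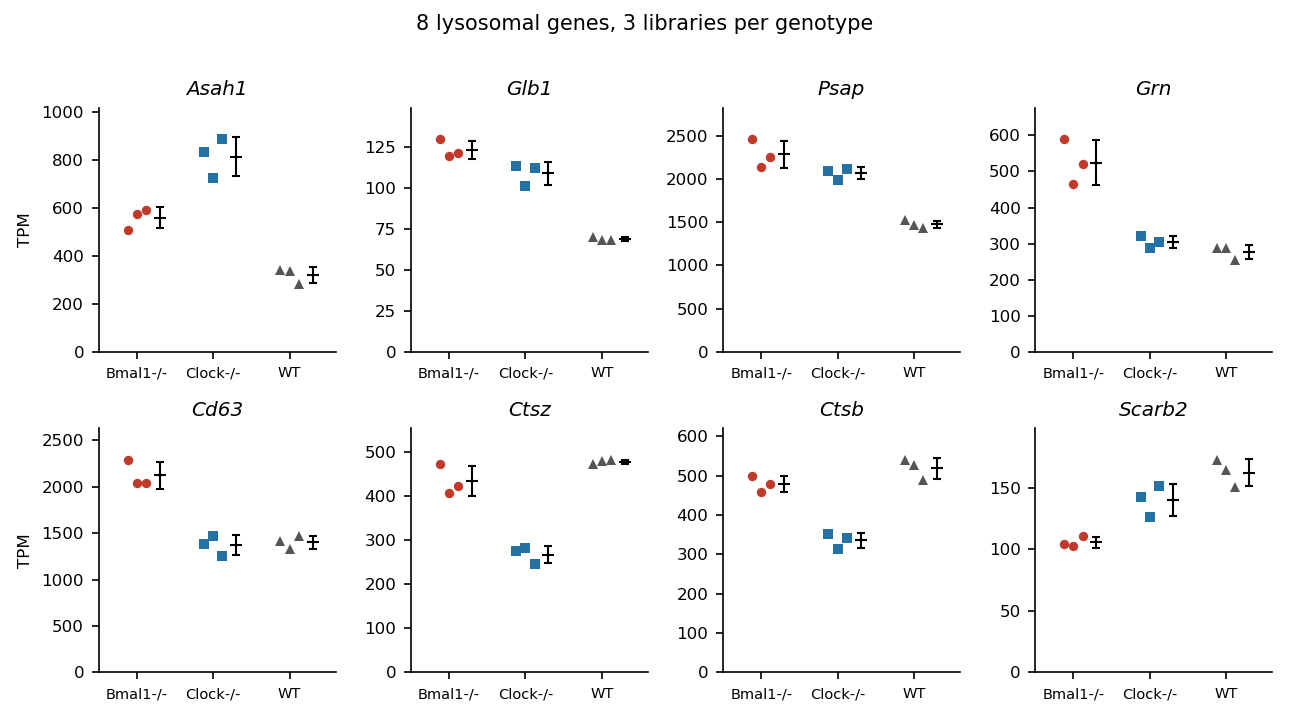
TPM of 8 lysosomal genes in the 3 Bmal1-/-, 3 Clock-/- and 3 WT libraries, with the mean and SD beside each group and the axis starting at 0. *Asah1*, *Glb1* and *Psap* lie above WT in both knockouts, *Grn* and *Cd63* in Bmal1-/- cells, and *Ctsz* and *Ctsb* lie lowest in Clock-/- cells and *Scarb2* in Bmal1-/- cells.

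Both activator precursors rose in Bmal1-/- cells and 1 of them in Clock-/- cells. *Grn*, for progranulin, a secreted and lysosomal glycoprotein cleaved to granulins (chromosome 11, 102430315 to 102437048), was at 589, 464 and 519 TPM in Bmal1-/-, 322, 288 and 304 TPM in Clock-/- and 289, 289 and 254 TPM in WT libraries. The Bmal1-/- libraries were far above the rest and Clock-/- and WT overlapped. The change was 0.91 ± 0.093 with an adjusted p of 3.18e-05 in Bmal1-/- and 0.14 at an adjusted p of 0.282 in Clock-/- cells. Over the 1201 tested genes of its chromosome 11 the median was 0.35 in Bmal1-/- cells, and with that subtracted *Grn* was at 0.56 at an adjusted p of 0.000489. *Psap* was at 2458, 2144 and 2249.5 TPM in Bmal1-/-, 2095, 1988 and 2115 TPM in Clock-/- and 1522, 1463 and 1438 TPM in WT libraries. Every knockout library was above every WT library. The log2 fold changes were 0.63 ± 0.068 with an adjusted p of 4.24e-05 in Bmal1-/- and 0.49 ± 0.068 with an adjusted p of 0.000403 in Clock-/- cells.

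Of the 2 proteins that pass cholesterol out of the lysosome, *Npc2* passed in both knockouts and *Npc1* in neither, and the difference between the 2 genes was not tested. *Npc2*, for the soluble carrier, was at 219.6, 191 and 201 TPM in Bmal1-/-, 197, 207 and 170.3 TPM in Clock-/- and 134, 125 and 134 TPM in WT libraries. Both knockouts were above WT in every library. The log2 change came to 0.64 ± 0.084 with an adjusted p of 0.000157 in Bmal1-/- and 0.54 ± 0.084 with an adjusted p of 0.000771 in Clock-/- cells. *Npc1*, for the membrane protein that takes the cholesterol over, was at 14.5 ± 0.597 TPM in Bmal1-/-, 14.1 ± 3.64 TPM in Clock-/- and 12.9 ± 1.16 TPM in WT libraries (SD, n = 3 each). Every Bmal1-/- library was above every WT library, with a log2 fold change of 0.16 ± 0.16 with an adjusted p of 0.427, and Clock-/- overlapped WT at 0.10 at an adjusted p of 0.665.

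Of the 6 membrane proteins, 1 rose and 1 fell in Bmal1-/- cells, and none rose and 1 fell in Clock-/- cells. *Cd63* was at 2287, 2043 and 2038 TPM in Bmal1-/-, 1380.1, 1469 and 1255 TPM in Clock-/- and 1415, 1329.9 and 1466 TPM in WT libraries. It was higher in Bmal1-/- than in every other library (log2 fold change 0.60 ± 0.079, adjusted p = 0.000163), and Clock-/- overlapped WT (-0.039 at an adjusted p of 0.735). The annotation holds a transcribed pseudogene of this gene, *Cd63-ps*, and reads of such a copy could be shared with it. *Scarb2*, for the receptor that carries β-glucocerebrosidase to the lysosome, was at 104, 103 and 111 TPM in Bmal1-/-, 143, 127 and 151 TPM in Clock-/- and 173, 164 and 151 TPM in WT libraries. Bmal1-/- libraries were lowest without overlap (log2 fold change -0.61 ± 0.081, adjusted p = 0.00016), and Clock-/- libraries overlapped WT (-0.21 at an adjusted p of 0.0636).

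*Cln3*, for a membrane protein mutated in the juvenile form of neuronal ceroid lipofuscinosis, was at 17.4, 14.8 and 16.5 TPM in Bmal1-/-, 11.95, 10.3 and 11.5 TPM in Clock-/- and 17.1, 18.2 and 16.4 TPM in WT libraries. It was lowest in Clock-/- without overlap (log2 fold change -0.58 ± 0.096, adjusted p = 0.00122), and Bmal1-/- overlapped WT (-0.083 at an adjusted p of 0.494). The structural glycoprotein *Lamp1* was at 1342, 1313 and 1354 TPM in Bmal1-/-, 1318, 1200.3 and 1310.4 TPM in Clock-/- and 1342, 1363 and 1292 TPM in WT libraries. Its groups overlapped, with log2 fold changes of 0.0049 ± 0.059 with an adjusted p of 0.952 in Bmal1-/- and -0.063 ± 0.059 with an adjusted p of 0.442 in Clock-/- cells. Its relative *Lamp2*, which also serves chaperone-mediated autophagy, had -0.095 at an adjusted p of 0.343 in Bmal1-/- and 0.071 at an adjusted p of 0.53 in Clock-/- cells. *Mcoln1* had 0.021 at an adjusted p of 0.855 in Bmal1-/- and 0.018 at an adjusted p of 0.89 in Clock-/- cells.

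*Sqstm1*, for the receptor that ties ubiquitylated cargo to the autophagosome, was at 775, 663 and 727 TPM in Bmal1-/-, 567, 531 and 555 TPM in Clock-/- and 586, 566 and 574 TPM in WT libraries. It was above all other libraries in Bmal1-/- (log2 fold change 0.32 ± 0.066, adjusted p = 0.00248), and Clock-/- libraries overlapped WT (-0.064 at an adjusted p of 0.491). It lies on chromosome 11, and with the chromosome's median subtracted its change in Bmal1-/- cells was -0.034 at an adjusted p of 0.711. Without WT replicate 2 or Bmal1-/- replicate 3 its adjusted p was 0.0133 and 0.0126. Of its exon bases 17.3% are shared with *Mrnip* on the opposite strand, at a mean of 22.5 TPM. In all, 14 of the 33 genes share exon bases with another annotated gene. The largest shares were 34.4% for *Ctsd* with *Gm49369* on the same strand, 26.8% for *Ctsl* with *Gm47123* and 21.6% for *Sgsh* with *Card14*. The last 2 overlaps are with the opposite strand.

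The direct comparison of Bmal1-/- with Clock-/- cells, which does not use the WT means, was past the test for 13 genes. In Bmal1-/- cells 9 were higher than in Clock-/- cells, and 4 were lower. These are 27.3% and 12.1% of the 33, against 22.8% and 21.8% of all genes tested and 28.8% and 21.0% of genes at or above the level of the lowest member. Every Bmal1-/- library was above every Clock-/- library for 14 genes and below for 7, against 31.9% and 31.1% of all genes. *Grn* was at 0.78 ± 0.093 with an adjusted p of 7.71e-05 and *Ctsz* at 0.70 ± 0.074 with an adjusted p of 3.43e-05, the largest of the 9. *Cd63* followed at 0.63 ± 0.079 with an adjusted p of 9.73e-05 and *Man2b1* at 0.54 ± 0.11 with an adjusted p of 0.00156. The others were *Ctsl* at 0.53 ± 0.058 with an adjusted p of 4.21e-05, *Ctsb* at 0.51 ± 0.067 with an adjusted p of 0.000131, *Cln3* at 0.49 ± 0.096 with an adjusted p of 0.00163, *Atp6v1a* at 0.48 ± 0.10 with an adjusted p of 0.00291 and *Sqstm1* at 0.39 ± 0.066 with an adjusted p of 0.00076. The 4 lower in Bmal1-/- cells were *Asah1* at -0.54 ± 0.10 with an adjusted p of 0.00127, *Scarb2* at -0.40 ± 0.081 with an adjusted p of 0.00211, *Gla* at -0.38 ± 0.088 with an adjusted p of 0.00458 and *Lgmn* at -0.30 ± 0.061 with an adjusted p of 0.002. *Gla* was at 16.4, 15.1 and 14.9 TPM in Bmal1-/- and 20.9, 19.8 and 20.5 TPM in Clock-/- libraries and at 19.1, 15.99 and 16.98 TPM in WT libraries, which overlapped Bmal1-/- and lay below Clock-/-. It passed between the knockouts and in neither line against WT. The number lower in Bmal1-/- was 1 without Bmal1-/- replicate 2 and without Clock-/- replicate 1, 2 without Bmal1-/- replicate 3, and 6 without Clock-/- replicate 2 or with median-of-ratios scaling. The calls on *Gla* and *Lgmn* were lost without Bmal1-/- replicate 2 or 3 or Clock-/- replicate 1 (adjusted p 0.0191 to 0.0223 and 0.0102 to 0.0120), on *Scarb2* without Bmal1-/- replicate 2 or Clock-/- replicate 1 (0.0102 and 0.0105), and on *Atp6v1a* without Bmal1-/- replicate 1 or 3 (0.0107 and 0.0136).

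Median fold changes of all tested genes differed between chromosomes, and the 33 genes lie on 15 chromosomes. Chromosome 11 holds 6 of them, and 5 of these 6 rose in Bmal1-/- cells (*Atp6v0a1*, *Grn*, *Naglu*, *Sgsh* and *Sqstm1*, with *Gaa* not past the test), where 42.6% of all 1201 tested genes of that chromosome rose. Chromosome 8 also holds 6, of which 3 rose (*Asah1*, *Atp6v1b2* and *Man2b1*), where 17.3% of its 833 tested genes rose and their median was -0.02. In Clock-/- cells chromosome 16 had a median of -0.46 and chromosome 5, which carries *Gusb* and *Scarb2*, one of -0.26. With each gene's chromosome median subtracted, 10 of the 33 rose and 3 fell in Bmal1-/- cells, and 8 rose and 4 fell in Clock-/- cells. The shares of all genes that rose or fell were not counted after the subtraction, so these numbers have no background. *Naglu* stayed past the test at 0.31 at an adjusted p of 0.004 in Bmal1-/- and 0.88 at an adjusted p of 1.19e-05 in Clock-/- cells. In Bmal1-/- cells 5 calls were lost, on *Sqstm1* at -0.034, *Atp6v0a1* at 0.17 (from 0.53 unsubtracted), *Sgsh* at 0.28 (0.64), *Ctsd* at 0.26 (0.32) and *Lgmn* at -0.22 (-0.28). In Clock-/- cells 4 were lost, on *Atp6v1a* at 0.016 and *Gusb* at -0.19 (from -0.45), and on *Hexa* at 0.37 (0.41) and *Ctsa* at -0.36 (-0.38), whose size hardly moved, while *Gaa* passed there at 0.40 at an adjusted p of 0.00711 and *Atp6v1b2* at 0.23 at an adjusted p of 0.00984. *Asah1*, *Glb1*, *Npc2* and *Psap* lie on chromosomes 8, 9, 12 and 10, with medians between -0.069 and 0.056 in the 2 lines, and passed in both after the subtraction.

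**Figure D4:**
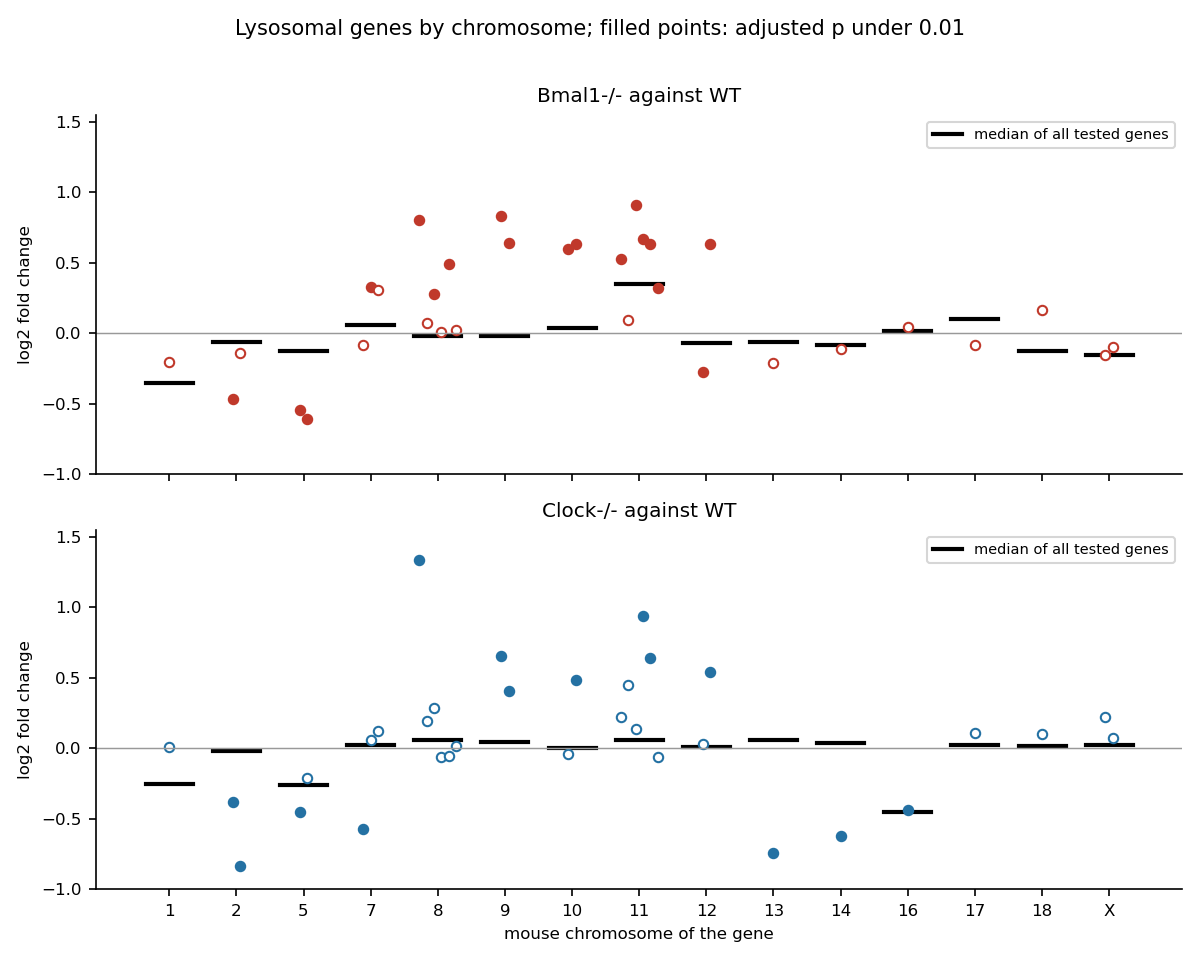
Log2 fold change of the 33 genes by chromosome in Bmal1-/- against WT (top) and Clock-/- against WT (bottom), with filled points at an adjusted p under 0.01 and a black bar at the median of all tested genes of that chromosome. The bar lies at 0.35 for chromosome 11 in Bmal1-/- cells and at -0.46 for chromosome 16 in Clock-/- cells.

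Other genes of the organelle were counted from lists that were written with earlier results of these data known, and stand against 18.4% higher and 21.0% lower of all genes in Bmal1-/- cells and 9.50% higher and 14.4% lower in Clock-/- cells. Among genes at or above the level of the lowest of the 33, these shares were 24.5% and 20.5% in Bmal1-/- cells. In Clock-/- cells they were 10.4% and 15.0%. Some genes of the lists lie under that level. Of 14 other V-ATPase subunits tested, 4 were higher (28.6%) and none lower in Bmal1-/- cells, and 5 higher (35.7%) and none lower in Clock-/- cells. *Atp6v1e1*, for a stator subunit, was at 262, 239.9 and 255 TPM in Bmal1-/-, 226, 228 and 215 TPM in Clock-/- and 173, 171 and 167 TPM in WT libraries. It was above WT in every knockout library, with a change of 0.57 at an adjusted p of 2.65e-05 in Bmal1-/- and 0.39 at an adjusted p of 0.000519 in Clock-/- cells. *Tcirg1*, for an alternative form of the membrane subunit encoded by *Atp6v0a1*, was at 16.9, 16.3 and 16.9 TPM in Bmal1-/-, 8.02, 6.37 and 9.04 TPM in Clock-/- and 5.82, 6.26 and 6.203 TPM in WT libraries. Its change in Bmal1-/- cells was 1.32 at an adjusted p of 1.44e-05. Of 30 other hydrolases and activators, 10 were higher (33.3%) and 2 lower (6.67%) in Bmal1-/- cells, and 7 higher (23.3%) and 1 lower (3.33%) in Clock-/- cells.

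Among these hydrolases, the cysteine protease gene *Ctsf* was at 158, 141 and 155 TPM in Bmal1-/-, 67.99, 70.2 and 63.4 TPM in Clock-/- and 50.5, 52.5 and 55.7 TPM in WT libraries. *Lipa*, for acid lipase, was at 86.4, 84.5 and 92.9 TPM in Bmal1-/-, 30.1, 22.7 and 32.2 TPM in Clock-/- and 34.3, 34.9 and 29.7 TPM in WT libraries. Bmal1-/- libraries stood apart for both, by log2 fold changes of 1.497 at an adjusted p of 2.62e-07 and 1.39 at an adjusted p of 1.25e-05 against WT. *Arsb*, for an arylsulfatase, was instead highest in Clock-/- cells, at 82.4, 77.5 and 80.6 TPM in Bmal1-/-, 151, 135 and 168 TPM in Clock-/- and 65.5, 64.7 and 59.4 TPM in WT libraries, with a change there of 1.24 at an adjusted p of 3.26e-06. *Gm2a*, for a ganglioside activator, was at 11.2, 12.3 and 11.96 TPM in Bmal1-/-, 24.4, 22.5 and 24.3 TPM in Clock-/- and 11.4, 12.4 and 11.8 TPM in WT libraries. *Ids* and *Idua*, for enzymes of heparan and dermatan sulfate breakdown, were lower in Bmal1-/- cells, by log2 fold changes of -0.76 at an adjusted p of 0.00109 and -0.73 at an adjusted p of 0.000322.

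Of 19 other lysosomal membrane proteins, 3 were higher and 3 lower in Bmal1-/- cells (15.8% each, under the 18.4% and 21.0% of all genes), and 2 higher (10.5%) and 3 lower (15.8%) in Clock-/- cells, near the 9.50% and 14.4% of all genes. *Cd68*, for a heavily glycosylated membrane protein known best from macrophages, had the largest change, at 1.23, 1.31 and 1.18 TPM in Bmal1-/-, 22.04, 22.2 and 20.9 TPM in Clock-/- and 8.96, 9.64 and 8.71 TPM in WT libraries, far apart in all 3 genotypes. The change on the log2 scale was -2.17 at an adjusted p of 1.37e-07 in Bmal1-/- and 1.17 at an adjusted p of 1.19e-05 in Clock-/- cells. The 5 leukocyte markers as a list summed to 1.31 to 1.62 TPM in Bmal1-/-, 21.2 to 22.9 TPM in Clock-/- and 9.60 to 10.9 TPM in WT libraries, most of it *Cd68*. *Ptprc* and *Adgre1* were at or under 0.31 TPM and *Lyz2* at or under 0.32 TPM in every library. *Csf1r* went the other way from *Cd68* in Clock-/- cells. It was at 0.12, 0.090 and 0 TPM in Bmal1-/-, 0.13, 0 and 0.041 TPM in Clock-/- and 1.01, 0.98 and 0.82 TPM in WT libraries. *Tpcn1*, for a sodium and calcium channel of the endolysosome, was at 46.04, 41.4 and 44.1 TPM in Bmal1-/-, 13.7, 11.4 and 14.8 TPM in Clock-/- and 19.8, 18.5 and 16.8 TPM in WT libraries (log2 fold change 1.21 at an adjusted p of 1.12e-05 in Bmal1-/-).

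Of 19 genes of the TFEB family and of mTORC1 at the lysosome, 6 were higher (31.6%) and 1 lower (5.26%) in Bmal1-/- cells, against 18.4% and 21.0% of all genes. In Clock-/- cells 2 were higher and 2 lower (10.5% each), near the 9.50% and 14.4% of all genes. *Tfeb*, for the master regulator of lysosomal genes, was at 15.8, 12.8 and 15.4 TPM in Bmal1-/-, 7.42, 6.87 and 7.696 TPM in Clock-/- and 5.04, 5.54 and 5.47 TPM in WT libraries. Every knockout library was above every WT library, and Bmal1-/- above Clock-/-. In the fit the change was 1.298 ± 0.11 with an adjusted p of 8.11e-06 in Bmal1-/- and 0.39 ± 0.11 with an adjusted p of 0.0176 in Clock-/- cells. *Flcn*, for folliculin, which acts on the mTORC1 signal that holds TFEB in the cytosol, was at 121, 109 and 115 TPM in Bmal1-/-, 47.4, 39.7 and 49.7 TPM in Clock-/- and 39.4, 36.8 and 35.2 TPM in WT libraries (log2 fold change 1.601 ± 0.091, adjusted p = 7.49e-07 in Bmal1-/-). It lies on chromosome 11, and was at 1.25 at an adjusted p of 3.79e-07 with the chromosome's median subtracted. Of the relatives of *Tfeb*, which were looked up after the lists were counted, *Tfe3* was at 30.1, 28.9 and 28.96 TPM in Bmal1-/-, 19.95, 17.998 and 22.6 TPM in Clock-/- and 22.2, 22.5 and 21.6 TPM in WT libraries. Its log2 fold change was 0.39 at an adjusted p of 0.00407 in Bmal1-/- and -0.13 at an adjusted p of 0.272 in Clock-/- cells, and 0.52 at an adjusted p of 0.000655 between the knockouts. *Mitf* was at 2.53, 2.53 and 3.0004 TPM in Bmal1-/-, 3.66, 2.96 and 4.401 TPM in Clock-/- and 3.41, 3.305 and 3.24 TPM in WT libraries, with -0.23 at an adjusted p of 0.186 in Bmal1-/- and 0.10 at an adjusted p of 0.601 in Clock-/- cells. RNA level does not show where these factors lie in the cell, and their activity was not measured.

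The calls were also set against the E-box. In Bmal1-/- cells 4 of the 14 genes with CACGTG rose and 2 fell, and 8 of the 14 without it rose and 2 fell. In Clock-/- cells 3 with it rose and 4 fell, and 3 without it rose and 2 fell. Over all tested genes with a window, 21.0% of 1218 with CACGTG and 21.4% of 9078 without it were higher in Bmal1-/- cells, and 11.6% and 9.53% in Clock-/- cells. The shares that were lower, with and without it, were 21.9% and 21.2% in Bmal1-/- cells, and 15.8% and 15.9% in Clock-/- cells. Of the 7 genes with TCACGTGA, *Ctsd* rose and *Ctsa* fell in Bmal1-/- cells, *Atp6v1a*, *Cln3* and *Ctsa* fell in Clock-/- cells, and *Atp6v0d1*, *Gla* and *Mcoln1* passed in neither.

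THRAP3 ChIP-seq peaks, as called by the authors for each library against the input of its genotype, were looked for from 1000 bases upstream to 100 bases downstream of each annotated transcript start. The libraries differed in yield before any gene is considered, with 12949 and 12226 peaks for Bmal1-/- against 808 and 6128 for WT, and IP efficiencies in the file headers of 1.86% and 1.67% for Bmal1-/- against 0.11% and 0.76% for WT. Of the 33 genes, 15 and 13 held a promoter peak in the Bmal1-/- libraries, against 0 and 4 in the WT libraries. Both Bmal1-/- libraries had one at 10 of the 33 (30.3%), against 13.0% of all genes, with no share counted among genes at a comparable level. Over all 20499 annotated genes the shares were 23.9% and 20.0% in Bmal1-/- and 0.951% and 9.06% in WT libraries. The 33 had shares of 45.5% and 39.4% in Bmal1-/- and 0% and 12.1% in WT libraries, against 40.6% and 33.6% in Bmal1-/- and 1.57% and 15.2% in WT libraries among genes at or above the level of the lowest member. In any library 18 of the 33 held one (54.5%), against 33.7% of all genes and 55.9% of genes at a comparable level. No test between the genotypes was run on these 2 libraries each, and the number of peaks per library moved with genotype.

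*Asah1* held one of the highest of these peaks, with 25.1 and 15.4 normalized tags in the 2 Bmal1-/- libraries, 44 bases upstream and 36 bases downstream of the nearest start, and none in WT libraries. *Neu1* had 24.3 and 16.0 tags in the Bmal1-/- libraries, within 15 bases of the start. *Gaa* had 18.8 and 14.0, and *Grn* 17.3 and 14.0, again in Bmal1-/- libraries alone. By tags these peaks ranked within the first 30.1% of their library's list. Fold over input was 14.43 and 8.83 for *Asah1*, 6.99 and 4.61 for *Neu1*, 4.33 and 4.03 for *Gaa* and 9.92 and 8.06 for *Grn*. Peak calling required 4, so those of *Gaa* lay close to the limit.

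*Ctsa*, *Lamp1*, *Mcoln1* and *Psap* were the 4 genes with a promoter peak in WT cells, all in WT library 2. *Mcoln1* had 13.4 and 16.7 tags in the Bmal1-/- libraries and 15.5 tags in WT library 2. *Ctsa* had 12.6 and 15.4 tags in the Bmal1-/- libraries against 13.2 tags in WT library 2. *Lamp1* had 15.7 tags in Bmal1-/- library 1 and 14.0 in WT library 2, and *Psap* had 14.1 tags in Bmal1-/- library 1 and 14.7 in WT library 2. *Lamp1* and *Psap* had no promoter peak in Bmal1-/- library 2. Where both genotypes had a peak at these 4 promoters, the heights in tags were close. The 4 were picked by their WT peak, so this does not describe other promoters. Fold over input for *Ctsa* was 32.74 in WT library 2 against 7.22 and 4.42 in the Bmal1-/- libraries. Against Bmal1-/- library 1 it was 9.15 to 5.71 for *Psap* and 5.78 to 4.51 for *Lamp1*. For *Mcoln1* it was 4.81 in WT library 2, below both Bmal1-/- libraries.

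Of the 22 CACGTG hexamers in the windows, 12 lay inside a peak, at 6 genes. The 4 hexamers printed for *Lamp1*, the 2 for *Mcoln1* and the 2 palindromes for *Ctsa* were covered in Bmal1-/- cells and in WT library 2, and those of *Gaa*, *Gla* and *Glb1* in Bmal1-/- libraries alone. Of the 14 genes with CACGTG 8 held a promoter peak, and of the 14 without it 7. Outside the promoter window, 2 genes had a peak in all 4 libraries within 10000 bases upstream. The peak near *Sqstm1*, chr11:50212880-50213128 in Bmal1-/- library 1, had 58.1 and 50.8 tags in Bmal1-/- libraries against 17.9 and 31.0 in WT libraries, and that near *Hexa* 22.0 and 17.4 in Bmal1-/- against 9.76 and 11.6 in WT libraries. In both places each Bmal1-/- library was above each WT library, in the direction of the libraries' yields.

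**Figure D5:**
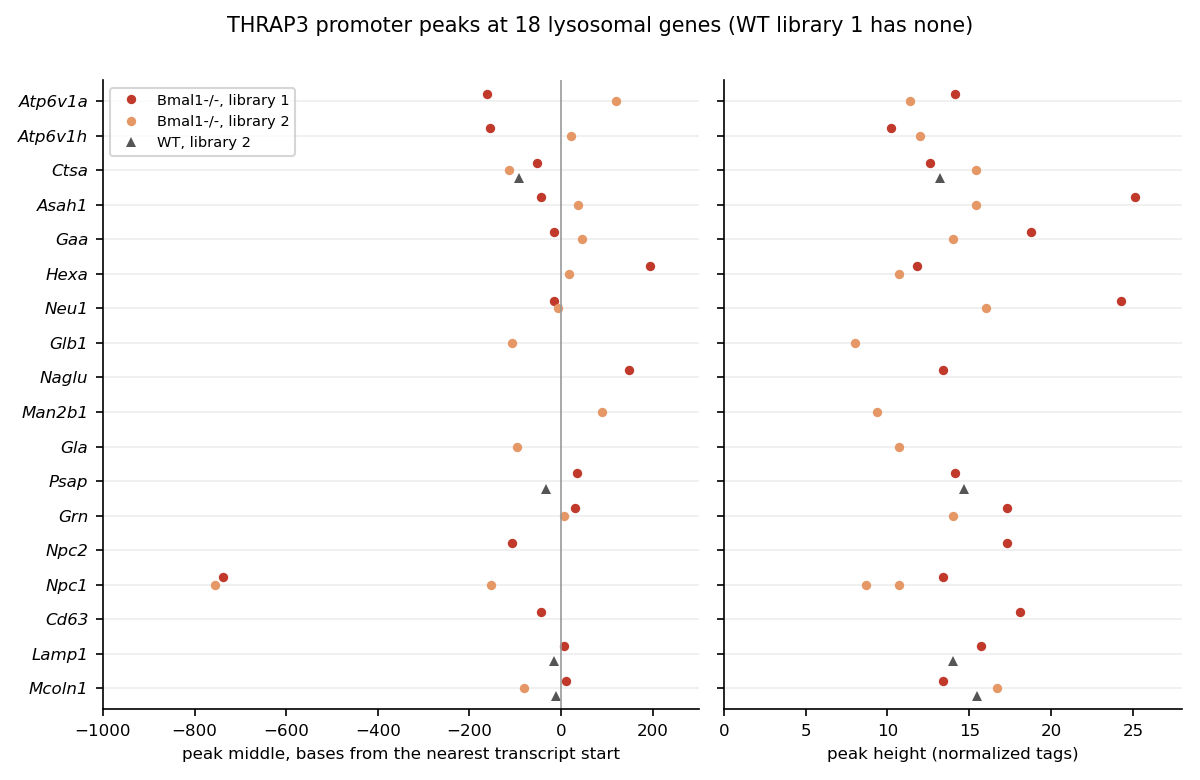
Distance of the middle of each THRAP3 promoter peak from the nearest annotated start (left, bases) and height in normalized tags (right) for the 18 genes with such a peak, in 2 Bmal1-/- libraries and WT library 2. Most peaks lie within 200 bases of the start, and the 4 WT peaks lie beside Bmal1-/- peaks of like height.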

How the data were processed

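RNA-seq values are the authors' deposited TPM of 20599 genes in 9 libraries (NEBNext poly(A), aligned by the authors to mm10 with STAR 2.5.0 and counted with featureCounts 1.5.3). The study's methods state a minimum depth per library, but the table holds no read numbers, and how TPM were computed is not given in the sources used here. Per-sample columns left unused numbered 0. The deposited DESeq2 1.22.1 tables hold only fold changes and p-values of the authors' comparisons and were not used. Genes reaching 1 TPM in 3 or more libraries were kept, and log2(TPM + 1) was fitted by genotype over all 9 libraries in limma 3.58.1 (R 4.3.3, eBayes with trend), with Benjamini-Hochberg adjustment over 15031 genes. Every adjusted p is this fit's, except where chromosome medians were subtracted or a library was left out, which were refitted the same way. For the subtraction, each gene's deviation from the WT mean was taken in each library. The median of these deviations over the gene's chromosome was subtracted from that library's values before the fit. The result can differ slightly from the fold change less the chromosome median printed beside it. Rose, fell, higher and lower mean an adjusted p under 0.01. On simulated data of 14454 genes with 100 changed by 0.6 on the log2 scale, 45 were recovered in the Bmal1-/- and 39 in the Clock-/- comparison, and at 1.5, 97 and 98 of 100. Most changes here are of the smaller size or below. A far larger share of genes passed in the data, 18.4% higher and 21.0% lower in Bmal1-/- cells. The adjusted threshold is then less strict than in the simulation. The recovered numbers therefore do not give the share of such changes that was detected here.

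THRAP3 peaks were called by the authors with HOMER after Bowtie2 2.2.4. The deposited normalized tags (signal) were used as heights, the deposited fold over input (a ratio) and score for stricter thresholds. Promoters were taken from GENCODE vM21 on GRCm38 (the coordinates of mm10) with Python 3.11.15 and pandas 2.3.3, and identifiers of 20499 of the 20599 genes matched. Sequences are RefSeq's. All 33 genes are named, by role, and of each list at most the 2 largest changes per direction and comparison with a mean TPM of at least 5. Members and lists were chosen with earlier results of these data known. Alternatives were pseudocounts of 0.1 and 0.5, other filters, scalings, variance settings and peak definitions, 2 genotypes alone, a replicate block and each library left out. THRAP3 eCLIP was not analysed here.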

Additional observations from a re-analysis of the deposited data

Results flagged for a closer look

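For 13 of the 33 genes the effect in Bmal1-/- cells differed from that in Clock-/- cells by the direct test of the difference, at an adjusted p under 0.01 in limma. Of the 33, 27.3% were higher in Bmal1-/- cells and 12.1% lower, against 22.8% and 21.8% of all genes tested. Among genes at or above the level of the lowest member the shares were 28.8% and 21.0%, and neither share of the 33 exceeded these. The effect in Bmal1-/- minus that in Clock-/- cells was 0.78 for *Grn*, 0.70 for *Ctsz*, 0.63 for *Cd63*, 0.54 for *Man2b1*, 0.53 for *Ctsl*, 0.51 for *Ctsb*, 0.49 for *Cln3*, 0.48 for *Atp6v1a* and 0.39 for *Sqstm1* on the log2 scale, and -0.54 for *Asah1*, -0.40 for *Scarb2*, -0.38 for *Gla* and -0.30 for *Lgmn*. With chromosome medians subtracted, *Atp6v1a* was at 0.02 at an adjusted p of 0.812, *Sqstm1* at 0.083 at an adjusted p of 0.344, *Gla* at -0.22 at an adjusted p of 0.0796 and *Lgmn* at -0.23 at an adjusted p of 0.0352, all no longer past the test, and *Gaa*, *Naglu* and *Glb1* were past it at -0.66 at an adjusted p of 0.000178, -0.57 at an adjusted p of 8.65e-05 and 0.23 at an adjusted p of 0.00766.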

How the results depend on the processing

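Under 19 alternatives, all planned, 8 of the 14 genes that rose in Bmal1-/- cells passed every time (*Asah1*, *Cd63*, *Glb1*, *Grn*, *Hexa*, *Naglu*, *Npc2* and *Psap*), as did 3 of the 4 that fell (*Ctsa*, *Gusb* and *Scarb2*). In Clock-/- cells 5 of 7 rises (*Asah1*, *Glb1*, *Naglu*, *Npc2* and *Psap*) and 4 of 7 falls (*Cln3*, *Ctsb*, *Ctsl* and *Ctsz*) did, and in the direct comparison 7 of 9 and 1 of 4 (*Asah1*). With one library left out, the number that rose in Bmal1-/- cells was 9 to 15 and that fell 3 to 5, in Clock-/- cells 5 to 9 and 5 to 6, and between the knockouts 8 to 11 were higher and 1 to 6 lower. With chromosome medians subtracted, 4 fell in Clock-/- cells, and among genes past the test against WT the sign turned for *Sqstm1* in Bmal1-/- cells (-0.034) and *Atp6v1a* in Clock-/- cells (0.016), by construction since the chromosome's own median exceeded their change. Of all genes, those past both thresholds numbered 1773, 1113 and 2182 in the 3 comparisons and 1060, 566 and 1325 with a mean TPM of at least 5, where fewer genes are tested. Replicate numbers do not pair the libraries (correlation of deviations -0.208 to 0.0742 for the same number, -0.163 to 0.212 for others), and with a replicate block 11 rose and 4 fell in Bmal1-/- cells, 7 rose and 5 fell in Clock-/- cells, and 9 were higher and 4 lower between the knockouts.

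Promoter peaks with a fold over input of at least 8 were at 4 and 7 genes in Bmal1-/- libraries (12.1% and 21.2%), 2 in WT library 2 (6.06%) and 9 in any library (27.3%). The shares of all genes were 11.2% and 9.77%, 4.27% and 18.8%. Among the 1000 highest scores of each list they were at 2 and 0, 1 and 3 (6.06% and 0%, 3.03% and 9.09%), against 1.83% and 1.39%, 1.26% and 3.24% of all genes. For these stricter thresholds no share was counted among genes at a comparable level. With 2500 bases either side of the start, WT library 1 had 1. TPM hold no read numbers, and at 3 libraries a genotype changes near 0.3 on the log2 scale lay close to the threshold (*Atp6v1b2*, *Ctsd*, *Lgmn*), so genes not past the test are not shown to be unchanged.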

Other observations

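Of 27 autophagy genes tested, 15 were higher and 2 lower in Bmal1-/- cells (background 18.4% and 21.0%), and 1 was higher and 2 lower in Clock-/- cells (9.50% and 14.4%), with median log2 fold changes of 0.43 and -0.01. *Map1lc3a*, for a protein conjugated to the autophagosome membrane, was at 207, 176 and 167 TPM in Bmal1-/-, 94.2, 105 and 92.4 TPM in Clock-/- and 69.7, 78.5 and 75.99 TPM in WT libraries (log2 fold change 1.28 at an adjusted p of 3.33e-06 in Bmal1-/-). *Ulk1*, for the kinase that starts autophagy, was at 46.2, 42.4 and 47.3 TPM in Bmal1-/-, 12.98, 11.8 and 17.1 TPM in Clock-/- and 20.6, 21.7 and 18.7 TPM in WT libraries, higher than WT in Bmal1-/- (log2 fold change 1.12 at an adjusted p of 5.86e-05) and lower in Clock-/- cells (-0.53 at an adjusted p of 0.00908). *Ulk1* lies on chromosome 5, and relative to that chromosome's median its change in Clock-/- cells was -0.26 at an adjusted p of 0.06, no longer past the test. *Atg3*, for the enzyme that attaches lipid to that protein family, was lower in both, at 35.8, 39.2 and 38.8 TPM in Bmal1-/-, 50.4, 48.8 and 48.7 TPM in Clock-/- and 70.9, 77.2 and 73.97 TPM in WT libraries. *Atg3* lies on chromosome 16, and with the chromosome's median subtracted it was at -0.96 at an adjusted p of 6.93e-06 in Bmal1-/- and -0.12 at an adjusted p of 0.226 in Clock-/- cells. The direct test between the knockouts was passed by 11 of the 27 upwards and by *Atg3* alone downwards, against 22.8% and 21.8% of all genes.

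Of 16 genes that deliver enzymes to the lysosome, 3 were higher and 3 lower in Bmal1-/- cells (18.8% each), and 2 higher and 2 lower in Clock-/- cells (12.5% each), near the shares of all genes (18.4% and 21.0%, and 9.50% and 14.4%). *Gnptab*, for the enzyme subunits that start the mannose-phosphate tag on lysosomal hydrolases, was at 16.3, 17.99 and 18.2 TPM in Bmal1-/-, 70.4, 56.9 and 81.3 TPM in Clock-/- and 29.4, 28.2 and 24.8 TPM in WT libraries. The 3 genotypes did not overlap, and WT lay between the knockouts, with a log2 fold change of -0.62 ± 0.12 with an adjusted p of 0.00217 in Bmal1-/- and 1.296 ± 0.12 with an adjusted p of 3.73e-05 in Clock-/- cells. *Sort1*, for a sorting receptor used beside that tag, was at 95.4, 95.1 and 97.98 TPM in Bmal1-/-, 58.6, 44.7 and 73.3 TPM in Clock-/- and 63.8, 60.1 and 55.1 TPM in WT libraries (log2 fold change 0.68 at an adjusted p of 0.00309 in Bmal1-/-).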
